A study of Mus musculus with 46 samples.

Results

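The genes described here are those of calcineurin, of its RCAN regulators and of the NFAT transcription factors: *Ppp3ca*, *Ppp3cb*, *Ppp3r1*, *Rcan1*, *Rcan2*, *Nfatc1*, *Nfatc2*, *Nfatc3* and *Nfatc4*. They were chosen by name, as the entries of both count tables whose Ensembl identifier maps to one of these 9 symbols. All 9 were found in each table, among 17514 genes in the table of gastrocnemius muscles and 16987 genes in the table of spinalis muscles. A minimum of 0.5 CPM (a gene's count on the usual per-total scale, with library totals normalized by the TMM method) in at least 2 libraries removed 0 genes from either table, so all 9 were tested. The study's methods give the same cutoff, and every gene of both tables already met it. Shares of all genes below therefore refer to genes above this level.

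The study asked how *Actn3* genotype alters the response of mouse skeletal muscle to the loss and the gain of androgen, and RNA was sequenced from muscles of wild-type (WT) and *Actn3* knockout (KO) mice. *Actn3* encodes α-actinin-3, a protein of the Z-line of fast muscle fibers. The labels describe 46 samples, and 45 libraries were used, 1 KO-ORX sample being not analysed here. The labels give the strain of all mice as C57BL6, and the study's methods give C57BL/6J.

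In the androgen deprivation experiment, the gastrocnemius was taken from male mice 12 weeks after an operation done at 8 to 10 weeks of age. The 4 groups were WT-sham (6 libraries) and KO-sham (6), in which the testes were exposed and left in place, and WT-ORX (6) and KO-ORX (5), in which they were removed by orchidectomy (ORX). In the androgen treatment experiment, the spinalis was taken from female mice after 6 weeks with a silastic implant placed under the skin at 4 to 5 weeks of age. The implant was empty in the WT-empty (5) and KO-empty (5) groups and held 10 mg of dihydrotestosterone (DHT) in the WT-DHT (6) and KO-DHT (6) groups. Operated mice of every group received buprenorphine and isoflurane. Sex, muscle, age and duration all differed between the experiments, so the experiments cannot be told apart from these differences and were never compared.

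Calcineurin is a phosphatase made of a catalytic subunit and a calcium-binding regulatory subunit, and it is switched on by calcium-bound calmodulin. It removes phosphates from NFAT transcription factors, which then enter the nucleus, and in skeletal muscle it is known for its part in the slow and oxidative fiber program. RCAN proteins bind calcineurin and can inhibit it, and a short form of RCAN1 is transcribed from an internal promoter that NFAT can drive. Counts per gene add up all transcripts of a gene, so the short and long forms of *Rcan1* could not be separated, and neither phosphatase activity nor NFAT localization can be read from counts.

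The total count per library was 29511438 to 37486666 in KO-sham, 26653932 to 48521557 in KO-ORX, 43408015 to 50273747 in WT-sham and 39882434 to 55369921 in WT-ORX. Every KO-sham library was therefore shallower than every WT-sham library. In the spinalis, totals were 37289993 to 51183210 in WT-empty, 34812381 to 53899279 in WT-DHT, 42478015 to 47807754 in KO-empty and 34902028 to 51652767 in KO-DHT. The least abundant member, *Nfatc4*, had 96 to 353 counts per library, and *Ppp3ca* had 5602 to 16476.

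*Actn3* itself checked the genotype labels. Its CPM was 5977 to 10353 in the WT libraries of both experiments and 34.3 to 83.2 in the KO libraries, so that every library matched its label. The 8 skeletal muscle genes used to check the tissue were all in both tables, and *Myh4* was the most abundant of them in every group. These genes cannot tell the gastrocnemius from the spinalis, so which muscle each label names was not checked. No marker gene of any list was at 0 in any library, and *Cd79a* and *Pmp2*, and in the gastrocnemius *Ucp1*, were not analysed here. Every gene of the tables met the minimum of 0.5 CPM in at least 2 libraries, so this check could not find a marker absent throughout. No pair of libraries within a group was identical among 55 pairs in the gastrocnemius and 50 in the spinalis.

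The KO-empty library 61 stood apart from its group. Its median correlation with the other KO-empty libraries (log2 CPM across genes) was 0.974, the lowest of the 45 libraries, and within the spinalis it had the highest summed CPM of immune markers (290.1, most abundant gene *Lyz2*) and of red blood cell markers (627, most abundant gene *Hbb-bs*). The WT-DHT library 39 followed with a median correlation of 0.980 and the lowest total count of its group, 34812381. The calls of members with DHT are given with and without these 2 libraries, an alternative chosen after seeing the data.

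Levels were compared between genes as CPM per kb of exon, with exon lengths from GENCODE M21, which is on GRCm38 and not on GRCm39, the build named for the counts. In WT-sham muscles, *Ppp3r1* had the highest median level, 30.5 CPM per kb, followed by *Ppp3cb* at 25.1, *Ppp3ca* at 21.8, *Rcan1* at 20.1 and *Rcan2* at 11.6. The NFAT genes were lower, with median levels of 2.69 CPM per kb for *Nfatc3*, 1.80 for *Nfatc1*, 0.943 for *Nfatc4* and 0.616 for *Nfatc2*. *Ppp3ca* (20.03 to 22.4 CPM per kb) and *Rcan1* (19.4 to 23.5) overlapped across the WT-sham libraries, whereas *Ppp3r1* (29.3 to 33.3) lay above *Ppp3cb* (24.0 to 26.1).

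In every one of the 8 groups *Rcan2* ranked 5 in this order, *Nfatc4* ranked 8 and *Nfatc2* ranked 9, while the first 4 places were shared by the subunits and *Rcan1*. *Ppp3r1* had the highest median in 7 groups. In KO-DHT the highest median was that of *Rcan1*, 30.8 CPM per kb (26.6 to 47.9), but its libraries overlapped those of *Ppp3r1*, with a median of 30.2 (24.4 to 31.8). *Nfatc3* and *Nfatc1* held ranks 6 and 7, and their order was turned only in KO-DHT, where their libraries overlapped.

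**Figure D1:**
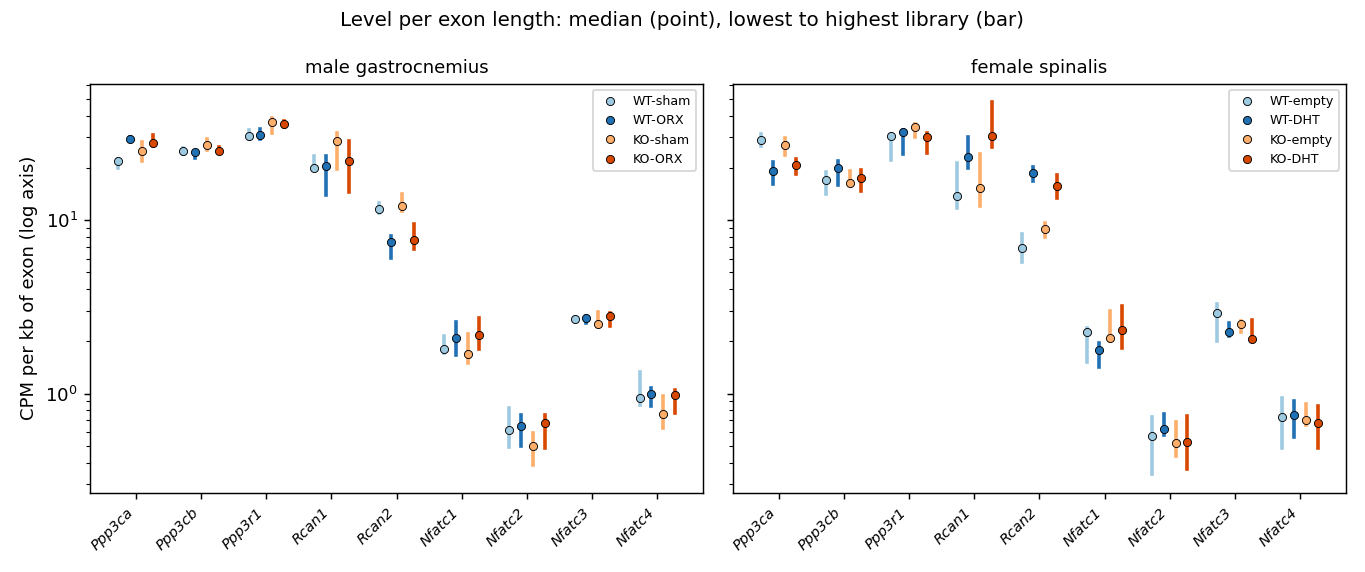
Level of each gene in CPM per kb of exon (vertical log axis) in the 4 groups of each experiment, with the group median as a point and the lowest to highest library as a bar. The subunits and *Rcan1* stood highest, *Rcan2* ranked 5 and the NFAT genes lowest, with *Nfatc2* last in each of the 8 groups.

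Each experiment gave 5 comparisons: the treatment in WT, the treatment in KO, the genotype in controls, the genotype in treated mice, and the genotype by treatment interaction, which is the treatment effect in KO minus that in WT. All genes of a table were fitted together with edgeR's quasi-likelihood test on TMM-normalized counts, and p-values were adjusted over all genes by the Benjamini-Hochberg method. A gene was called at an adjusted p of at most 0.01, or 0.05 for the interaction. An unadjusted edgeR p under 0.05 was common among all genes. In the gastrocnemius comparisons 1683 to 4288 of 17514 genes had one, and in the spinalis 2564 to 5070 of 16987. Comparisons that share a group are not independent of each other, and their values are given side by side only.

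After ORX, 2 of the 9 members were called in WT (WT-ORX against WT-sham), where 5.45% of all genes were called, and 1 was called in KO (KO-ORX against KO-sham), where 5.57% were. Between genotypes, 2 members were called in sham mice, against 5.3% of all genes. After ORX the genotype comparison called 0 members with edgeR, against 3.8% of all genes, and 1 member had an unadjusted p under 0.05, 1 was called by DESeq2 and 0 by limma-voom. The ORX interaction called 0 members with edgeR, against 0.0228% of all genes (4 genes), with 2 members at an unadjusted p under 0.05, 1 called by DESeq2 and 0 by limma-voom. At an unadjusted edgeR p under 0.05 stood 3313 of 17514 genes in KO-ORX against WT-ORX and 1683 in the interaction.

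With DHT, 2 members were called in WT, against 11.3% of all genes, and 3 in KO, against 4.62%. Between genotypes, 0 members were called with edgeR in mice with empty implants, against 4.25% of all genes, with 2 members at an unadjusted p under 0.05 and 0 called by either DESeq2 or limma-voom. In DHT-treated mice the genotype comparison likewise called 0 members with edgeR, against 11.6% of all genes, with 3 members at an unadjusted p under 0.05 and 0 called by either other tool. At an unadjusted edgeR p under 0.05 stood 3969 of 16987 genes in KO-empty against WT-empty and 5034 in KO-DHT against WT-DHT. The DHT interaction called 1 member, against 3.24% of all genes.

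A count that needs no model was taken alongside, of genes whose groups did not overlap in CPM in a single library. In the gastrocnemius it took 2 members in WT-ORX against WT-sham (6.04% of all genes), 1 in KO-ORX against KO-sham (5.34%), 0 in KO-sham against WT-sham (5.1%) and 1 in KO-ORX against WT-ORX (5.6%). In the spinalis it took 2 members in WT-DHT against WT-empty (11.3%), 3 in KO-DHT against KO-empty (6.08%), 0 in KO-empty against WT-empty (6.77%) and 0 in KO-DHT against WT-DHT (10.4%). The members behind these counts are named below with their values.

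**Figure D2:**
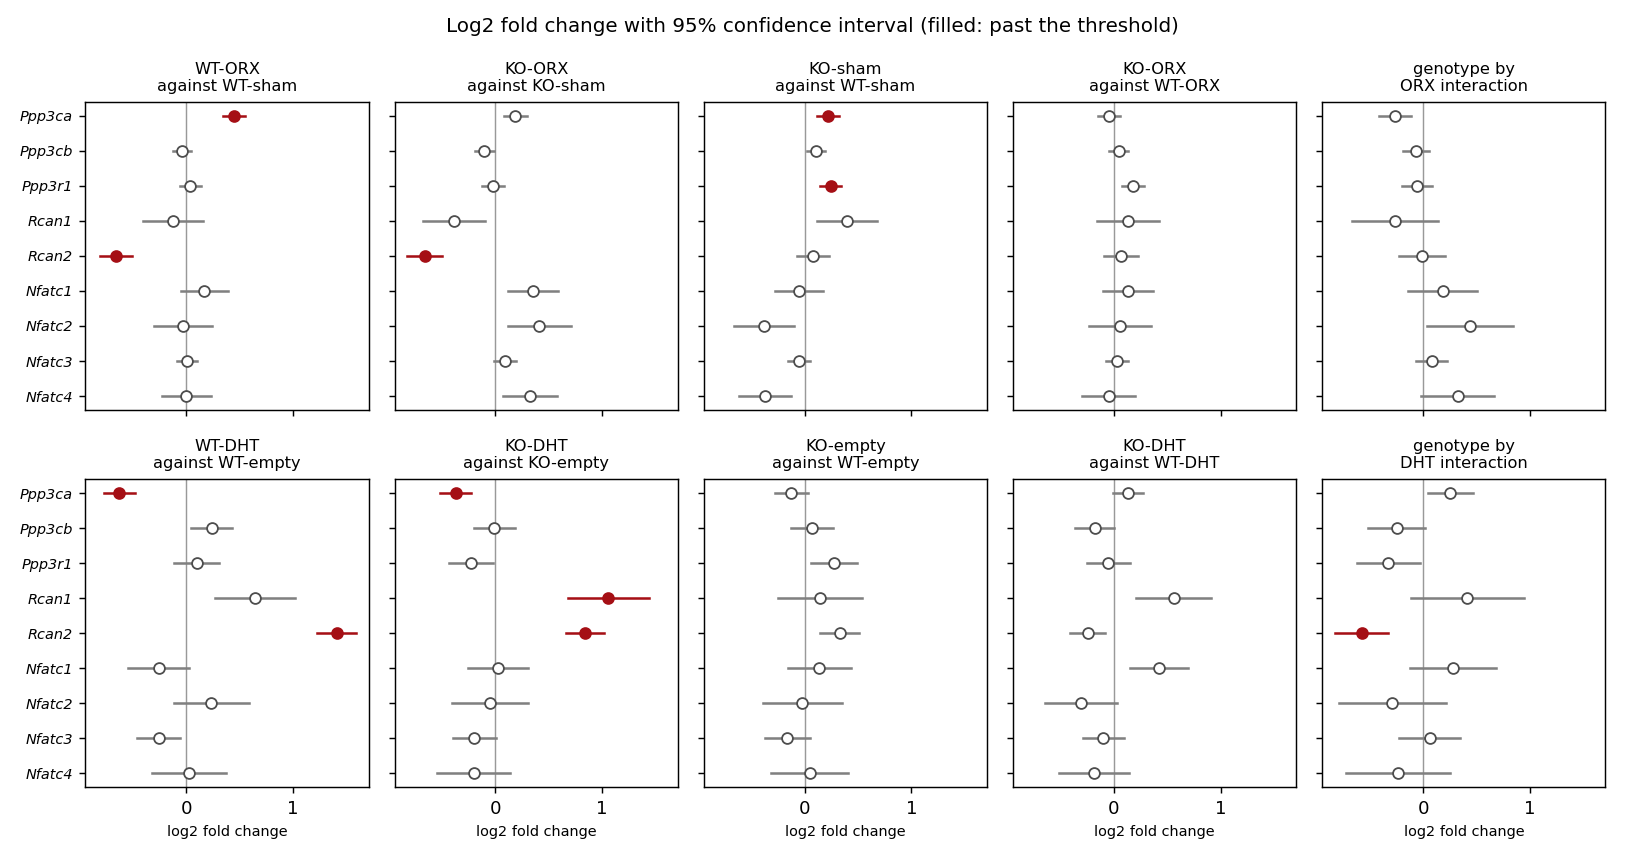
Log2 fold change of each gene (horizontal axis) with its 95% confidence interval in the 10 comparisons, with filled points for genes past the threshold. *Rcan2* was past it in both treatment comparisons of each experiment and in the DHT interaction, *Ppp3ca* in 4 comparisons, *Rcan1* and *Ppp3r1* in 1 comparison each, and *Ppp3cb* and the 4 NFAT genes in none.

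*Ppp3ca* encodes the α isoform of the catalytic subunit (ENSMUSG00000028161, chromosome 3, 136670124 to 136937727 of GRCm38, + strand). In the gastrocnemius, its CPM was 199.9 to 224 in WT-sham, with a median of 218. In WT-ORX it was 287 to 303, with a median of 293. Every WT-ORX library was above every WT-sham library.

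In KO-sham, *Ppp3ca* CPM was 221 to 283, with a median of 249. In KO-ORX the 5 libraries had 278, 269.6, 268, 311 and 300.0 CPM. The KO groups overlapped, since the highest KO-sham library was above 3 of the KO-ORX libraries, and 5 of 6 KO-sham libraries were above the highest WT-sham library.

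*Ppp3ca* rose by a log2 fold change of 0.45 in WT-ORX against WT-sham (SE 0.05, edgeR adjusted p = 3.8e-07, higher in 6 of 6 libraries than every control), a gain of 36.6%. In KO-ORX against KO-sham the log2 fold change was 0.19 (SE 0.05), and the edgeR adjusted p of 0.0203 missed the threshold. With library-size scaling it was 0.30 and was called (edgeR adjusted p = 0.00070). Without KO-sham library 1, the highest of its group, this value was 0.22 with an edgeR adjusted p of 0.0040, and over all 23 fits that left out 1 library the adjusted p ran from 0.0040 to 0.0825, with 2 of 5 libraries above every KO-sham library. The ORX interaction for *Ppp3ca* was −0.26 (95% confidence interval −0.41 to −0.12), with an edgeR adjusted p of 0.155, which missed the threshold of 0.05, while DESeq2 called it (log2 fold change −0.27, DESeq2 adjusted p = 0.0404).

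*Ppp3ca* was also higher in KO-sham than in WT-sham, by a log2 fold change of 0.22 (SE 0.05, edgeR adjusted p = 0.0045, 5 of 6 libraries above every WT-sham library). This call was lost with library-size scaling (edgeR adjusted p = 0.0180), in a fit of only the groups compared (0.0143), and without WT-sham library 2 (0.0108), WT-sham library 5 (0.0161), KO-sham library 1 (0.0128) or KO-sham library 3 (0.0123), and over the fits that left out 1 library the adjusted p ran from 0.0008 to 0.0161. In KO-ORX against WT-ORX the log2 fold change of *Ppp3ca* was −0.05 (95% confidence interval −0.15 to 0.06).

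In the spinalis, the 5 WT-empty libraries had 312, 312, 291, 289.8 and 268 CPM of *Ppp3ca*. In WT-DHT the CPM was 162 to 215, with a median of 191. The 5 KO-empty libraries had 284, 299, 272, 238 and 255 CPM, and KO-DHT had 185 to 225, with a median of 206. In each genotype, every DHT library was below every library with an empty implant, while WT-empty overlapped KO-empty and WT-DHT overlapped KO-DHT.

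*Ppp3ca* fell with DHT in WT by a log2 fold change of −0.63 (SE 0.07, edgeR adjusted p = 3.7e-07, lower in 6 of 6 libraries). In KO it fell by a log2 fold change of −0.37 (SE 0.07, edgeR adjusted p = 0.0012, lower in 6 of 6 libraries). Without both libraries that stood apart these values were −0.63 (edgeR adjusted p = 2.2e-06) and −0.38 (edgeR adjusted p = 0.0039), and without KO-empty library 61 alone the value in KO was −0.37 (edgeR adjusted p = 0.0034). The DHT interaction was 0.26 (95% confidence interval 0.05 to 0.46), and its edgeR adjusted p of 0.205 missed the threshold. The genotype comparisons of *Ppp3ca* in this experiment, −0.13 with empty implants and 0.13 with DHT on the log2 scale, were not called.

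*Ppp3cb* encodes the β isoform of the catalytic subunit (ENSMUSG00000021816, chromosome 14, 20499364 to 20546573 of GRCm38, − strand). Its CPM ran from 201 to 259 over the 23 gastrocnemius libraries, with group medians of 221 in WT-sham, 217 in WT-ORX, 239 in KO-sham and 219.7 in KO-ORX. In the spinalis it ran from 125 to 193, with group medians of 149.7 in WT-empty, 175 in WT-DHT, 145 in KO-empty and 154 in KO-DHT. The groups overlapped in every comparison. *Ppp3cb* was called in 0 of 10 comparisons with edgeR, DESeq2 or limma-voom, with 3 of 10 at an unadjusted p under 0.05, and its log2 fold changes lay between −0.25 and 0.24.

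*Ppp3r1* encodes the regulatory subunit calcineurin B (ENSMUSG00000033953, chromosome 11, 17159263 to 17200375 of GRCm38, + strand). In the gastrocnemius its CPM was 94.5 to 107 in WT-sham, with a median of 98.5, and 95.4 to 109 in WT-ORX, with a median of 101. In KO-sham it was 102 to 125, with a median of 119. The 5 KO-ORX libraries had 121, 116, 111, 119 and 112 CPM. Sham and ORX libraries overlapped within each genotype, whereas all KO-ORX libraries lay above all WT-ORX libraries, and KO-sham overlapped WT-sham only through KO-sham library 2, the lowest of its group.

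*Ppp3r1* was higher in KO-sham than in WT-sham by a log2 fold change of 0.24 (SE 0.05, edgeR adjusted p = 0.0011, 5 of 6 libraries above every WT-sham library). With library-size scaling the log2 fold change was 0.22 and the call was lost (edgeR adjusted p = 0.0163), while over the fits that left out 1 library the adjusted p stayed between 0.00011 and 0.0040. In KO-ORX against WT-ORX the log2 fold change was 0.18 (SE 0.05, 5 of 5 libraries higher), and the edgeR adjusted p of 0.0214 missed the threshold. That value was called without KO-sham library 2 (edgeR adjusted p = 0.0091), a library of neither group, and with DESeq2 (adjusted p = 0.0071), within a range of 0.0091 to 0.0682 over the fits that left out 1 library. The ORX interaction of *Ppp3r1* was −0.06 (95% confidence interval −0.20 to 0.08).

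Depth moved with genotype in the sham groups, as given above. Among skeletal muscle markers, 3 of 8 were called lower in KO-sham than in WT-sham (2.82% of all genes), with a summed CPM of 88694 to 118715 against 97621 to 119963. In KO-ORX, 6 of 8 were called lower than in WT-ORX (2.73% of all genes), with 86779 to 95454 against 94747 to 128824. Of these markers, *Mylpf*, *Tnnt3* and *Myh4* are also on the fast fiber list below, so the 2 lists are not separate results. *Myh4* was the most abundant gene of this list in each group and none of the 8 was at 0. The part of depth and of these genes in the genotype results for *Ppp3ca* and *Ppp3r1* was not tested. In bulk tissue, fewer cells of a type and less RNA per cell cannot be told apart.

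*Ppp3r1* shares 462 exon bases, 14.31% of its exon length, with *Wdr92* on the same strand, and reads there could be given to either gene or to neither. *Wdr92* itself had a log2 fold change of −0.06 in KO-sham against WT-sham (edgeR adjusted p = 0.661) and 0.10 in KO-ORX against WT-ORX (edgeR adjusted p = 0.515), neither of which was called, and a median CPM of 12.0 over the gastrocnemius libraries.

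In the spinalis, the 5 WT-empty libraries had 71.4, 81.2, 98.8, 101 and 98.5 CPM of *Ppp3r1*, and the 5 KO-empty libraries had 109, 111, 114, 115 and 97.1. In WT-DHT it was 77.7 to 107, with a median of 104, and in KO-DHT 78.7 to 103, with a median of 97.5. The groups overlapped in each comparison, with the lowest values in WT-empty libraries 4 and 7, WT-DHT libraries 39 and 50 and KO-DHT libraries 6 and 25. *Ppp3r1* was called in 0 of the 5 spinalis comparisons, the closest being KO-empty against WT-empty, with a log2 fold change of 0.28 (95% confidence interval 0.06 to 0.49, edgeR adjusted p = 0.107, above every WT-empty library in 4 of 5 libraries).

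**Figure D3:**
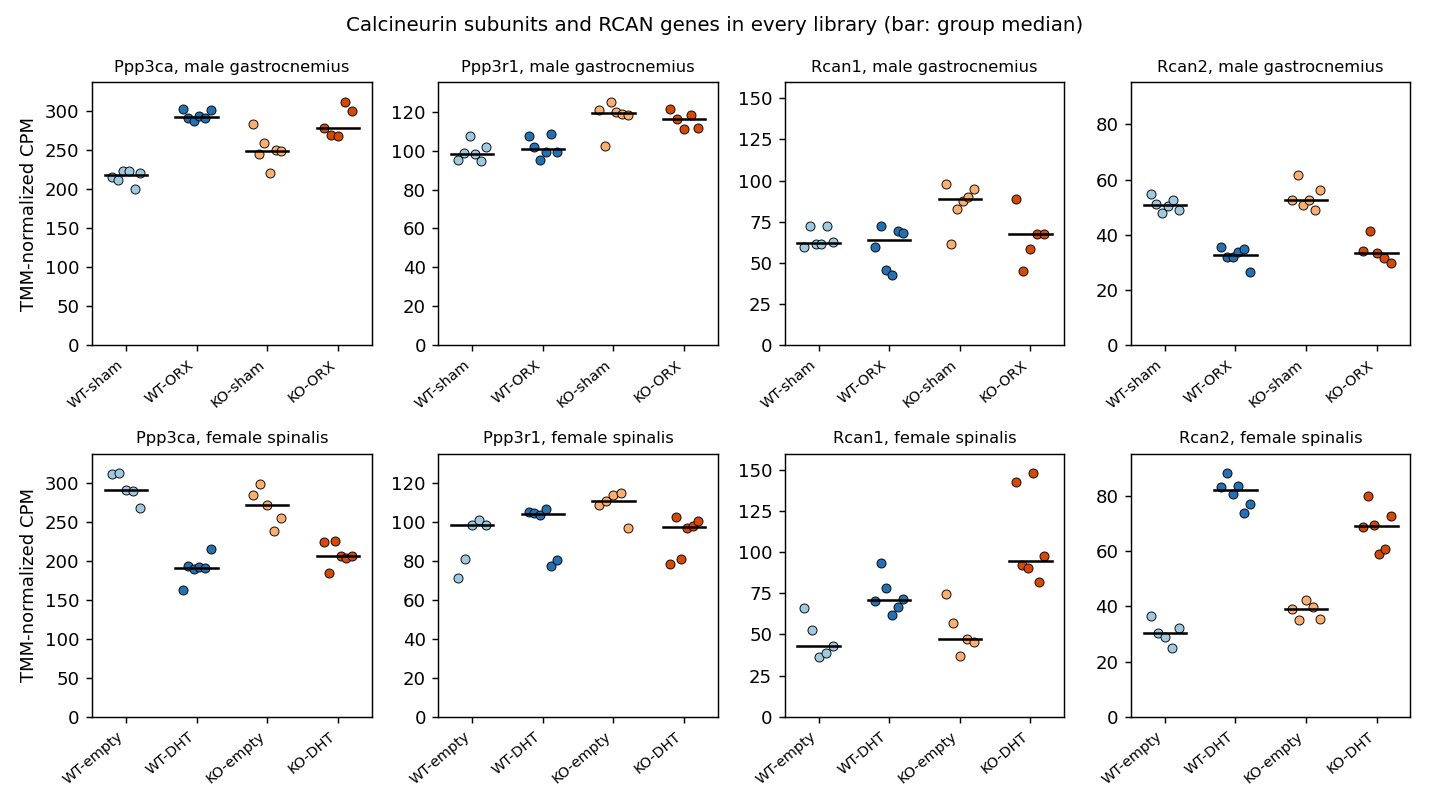
TMM-normalized CPM (vertical axis) of *Ppp3ca*, *Ppp3r1*, *Rcan1* and *Rcan2* in every library, with 1 point per library and a bar at each group median, for the gastrocnemius above and the spinalis below. The *Ppp3ca* points of WT-ORX (287 to 303) lie above those of WT-sham (199.9 to 224), and the *Rcan2* points of WT-DHT (73.8 to 88.1) lie above those of WT-empty (25.1 to 36.4).

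*Rcan1* encodes a regulator that binds and can inhibit calcineurin (ENSMUSG00000022951, chromosome 16, 92391953 to 92470867 of GRCm38, − strand). In the gastrocnemius its CPM was 59.7 to 72.6 in WT-sham, with a median of 62.1, and 42.9 to 72.2 in WT-ORX, with a median of 63.7. In KO-sham it was 61.2 to 97.7, with a median of 88.8. The 5 KO-ORX libraries had 88.6, 44.96, 58.3, 67.4 and 67.4 CPM. Apart from library 2, the lowest of its group, all KO-sham libraries were above all WT libraries, and the groups overlapped in each comparison.

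The log2 fold change of *Rcan1* in KO-sham against WT-sham was 0.40 (95% confidence interval 0.12 to 0.68), with 5 of 6 libraries above every WT-sham library, and the edgeR adjusted p of 0.0607 missed the threshold. It was past the threshold in a fit of only those 2 groups (edgeR adjusted p = 0.0078), while leaving out 1 library gave adjusted p-values from 0.0213 to 0.127. In KO-ORX against KO-sham the log2 fold change was −0.39 (95% confidence interval −0.68 to −0.10, edgeR adjusted p = 0.0797), and in WT-ORX against WT-sham it was −0.13 (−0.40 to 0.15). No gastrocnemius comparison of *Rcan1* was therefore called with edgeR on all groups, with 2 of the 5 at an unadjusted p under 0.05 and 0 called by DESeq2 or limma-voom.

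In the spinalis, the 5 WT-empty libraries had 65.9, 53.0, 36.2, 38.5 and 42.8 CPM of *Rcan1*, and the 5 KO-empty libraries had 74.8, 56.9, 37.1, 47.3 and 45.2. In WT-DHT its CPM was 62.1 to 93.2, with a median of 71.1. In KO-DHT it was 82.0 to 148, with a median of 94.9. All KO-DHT libraries lay above all KO-empty libraries, with libraries 6 and 40 well above the other 4 of their group, while in WT the groups overlapped only through WT-empty library 4.

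*Rcan1* rose with DHT in KO by a log2 fold change of 1.06 (SE 0.18, edgeR adjusted p = 0.00048, higher in 6 of 6 libraries), a gain of 108%. Without KO-empty library 61 the log2 fold change was 0.96 (edgeR adjusted p = 0.0020), and without both libraries that stood apart it was 0.95 (edgeR adjusted p = 0.0026). In WT the log2 fold change was 0.64 (SE 0.18, 95% confidence interval 0.26 to 1.02, 5 of 6 libraries above every WT-empty library), and the edgeR adjusted p of 0.0145 missed the threshold. That value was past the threshold without WT-empty library 4 (log2 fold change 0.79, edgeR adjusted p = 0.0037), KO-empty library 17 (0.0081) or KO-empty library 61 (0.0097), within a range of 0.0037 to 0.0512 over the 22 fits that left out 1 library. It was also called with limma-voom (log2 fold change 0.67, limma-voom adjusted p = 0.0096) and in a fit of only those 2 groups (0.63, edgeR adjusted p = 0.0052).

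The DHT interaction of *Rcan1* was 0.42 (95% confidence interval −0.11 to 0.94, edgeR adjusted p = 0.476), so that its response was not shown to differ between the genotypes. Its log2 fold change in KO-DHT against WT-DHT was 0.56 (95% confidence interval 0.20 to 0.91, edgeR adjusted p = 0.0229, 3 of 6 libraries above every WT-DHT library), short of the threshold. In KO-empty against WT-empty it was 0.14 (95% confidence interval −0.25 to 0.53).

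*Rcan2* encodes a related regulator of calcineurin (ENSMUSG00000039601, chromosome 17, 43801351 to 44039516 of GRCm38, + strand). In the gastrocnemius its CPM was 48.0 to 54.8 in WT-sham, with a median of 50.8, and 26.4 to 35.6 in WT-ORX, with a median of 32.8. In KO-sham it was 49.1 to 61.7, with a median of 52.6. The 5 KO-ORX libraries had 34.1, 41.5, 33.4, 31.6 and 29.7 CPM. In both genotypes every ORX library was below every sham library, and WT and KO overlapped within each treatment.

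*Rcan2* fell after ORX in WT by a log2 fold change of −0.65 (SE 0.07, edgeR adjusted p = 4.1e-07, lower in 6 of 6 libraries). In KO it fell by a log2 fold change of −0.66 (SE 0.08, edgeR adjusted p = 1.8e-06, lower in 5 of 5 libraries). Its level fell by 36.5% in WT and fell by 36.9% in KO, and by p-value the gene ranked 93 of 17514 in WT and 53 in KO. The ORX interaction was −0.01 (95% confidence interval −0.23 to 0.21), and the genotype comparisons were 0.08 in sham and 0.07 in ORX mice on the log2 scale, with neither called.

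In the spinalis, the 5 WT-empty libraries had 36.4, 30.4, 28.8, 25.1 and 32.1 CPM of *Rcan2*, and the 5 KO-empty libraries had 39.1, 35.1, 42.2, 39.9 and 35.5. In WT-DHT its CPM was 73.8 to 88.1, with a median of 82.0. In KO-DHT it was 58.9 to 79.9, with a median of 69.0. Every DHT library was above every library with an empty implant, and of the genotypes KO was the higher with empty implants in 3 of 5 libraries and the lower with DHT in 5 of 6 libraries, compared with the extreme of the WT group.

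*Rcan2* rose with DHT in WT by a log2 fold change of 1.41 (SE 0.09, edgeR adjusted p = 1.3e-11, higher in 6 of 6 libraries), a gain of 165%, and ranked 42 of 16987 genes by p-value. In KO it rose by a log2 fold change of 0.83 (SE 0.09, edgeR adjusted p = 4.3e-07, higher in 6 of 6 libraries), a gain of 78.4%, and ranked 41. Without both libraries that stood apart these values were 1.43 (edgeR adjusted p = 5.0e-11) and 0.86 (edgeR adjusted p = 1.3e-06), and without KO-empty library 61 alone the value in KO was 0.87 (edgeR adjusted p = 7.2e-07). The response was smaller in KO, with a DHT interaction of −0.57 (SE 0.12, edgeR adjusted p = 0.0064). This was the single interaction call among the members, and the adjusted p stayed between 0.0016 and 0.0145 over the 22 fits that left out 1 library, with −0.54 (edgeR adjusted p = 0.0141) without KO-empty library 61 and −0.56 (edgeR adjusted p = 0.0128) without both libraries that stood apart.

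The interaction was made of a higher starting level and a lower level with DHT, neither of which passed the threshold alone. *Rcan2* had a log2 fold change of 0.33 (SE 0.09, edgeR adjusted p = 0.0211) in KO-empty against WT-empty and of −0.25 (SE 0.08, edgeR adjusted p = 0.0344) in KO-DHT against WT-DHT. Without WT-empty library 4, the first of these was 0.40 and was called (edgeR adjusted p = 0.0059), against a range of 0.0059 to 0.0635 over the fits that left out 1 library.

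Of 6 endothelial genes, 2 were called higher in WT-DHT than in WT-empty, where 11.3% of all genes were called, and 1 in KO-DHT than in KO-empty, where 4.62% were, and their summed CPM was 171, 189, 186, 221 and 224 in WT-empty and 235 to 283 in WT-DHT, and 217, 216, 192, 225 and 243 in KO-empty and 206 to 292 in KO-DHT, where the groups overlapped, with *Pecam1* the most abundant gene and none at 0. Of 4 smooth muscle and pericyte genes, 1 was called higher in each of these comparisons, with summed CPM of 395, 420.3, 369.8, 468 and 396 in WT-empty and 472 to 564 in WT-DHT, and of 407, 433, 336, 369 and 435 in KO-empty and 442 to 517 in KO-DHT, with *Rgs5* the most abundant gene and none at 0. Their part in the DHT results for *Ppp3ca*, *Rcan1* and *Rcan2* was not tested.

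Of the 5 promoter entries of the RCAN genes, both of *Rcan1* and the 1 of *Rcan2* with matches are shown, because these 2 genes moved with DHT and because NFAT proteins bind the core sequence GGAAA. RefSeq promoters of GRCm38.p6, 300 bases each, were at hand for 7 of the 9 members, in 12 entries. GGAAA or its reverse complement TTTCC is common, being present in 61.3% of the 32851 promoters of this table, so that a match is a description of the letters and not a binding site. Capitals mark GGAAA or TTTCC in the sequences, which are written 5′ to 3′ on the strand of the gene. The internal *Rcan1* promoter, chr16:92400029-92400328 (− strand), holds 3 matches, and 9.4% of all promoters hold at least 3. The upstream *Rcan1* promoter, chr16:92466120-92466419 (− strand), holds 0. The first *Rcan2* promoter, chr17:43801102-43801401 (+ strand), holds 2, and 26.7% of all promoters hold at least 2. The 2 other *Rcan2* promoters, chr17:43801601-43801900 and chr17:43952749-43953048 (+ strand), hold 0 each. Of the genes not called in any comparison, *Ppp3cb* has an entry with 4 matches (2.6% of all promoters hold at least 4), *Nfatc2* has entries with 3 and 1, *Nfatc4* has 1 entry with 3, and *Nfatc3* has entries with 1 and 0. The entry of *Ppp3r1*, which was called in 1 comparison, holds 0.
Rcan1 internal promoter: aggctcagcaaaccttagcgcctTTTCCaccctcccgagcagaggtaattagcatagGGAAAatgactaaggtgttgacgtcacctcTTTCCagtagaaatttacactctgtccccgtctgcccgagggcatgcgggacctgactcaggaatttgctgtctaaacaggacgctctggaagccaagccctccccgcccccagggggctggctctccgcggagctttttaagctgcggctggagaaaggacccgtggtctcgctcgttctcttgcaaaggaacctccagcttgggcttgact
Rcan1 upstream promoter: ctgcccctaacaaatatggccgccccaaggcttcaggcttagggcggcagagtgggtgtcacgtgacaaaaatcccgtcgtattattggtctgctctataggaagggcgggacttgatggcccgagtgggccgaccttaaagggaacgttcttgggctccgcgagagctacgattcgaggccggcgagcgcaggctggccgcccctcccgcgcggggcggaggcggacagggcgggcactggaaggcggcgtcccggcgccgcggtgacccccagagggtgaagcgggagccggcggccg
Rcan2 promoter: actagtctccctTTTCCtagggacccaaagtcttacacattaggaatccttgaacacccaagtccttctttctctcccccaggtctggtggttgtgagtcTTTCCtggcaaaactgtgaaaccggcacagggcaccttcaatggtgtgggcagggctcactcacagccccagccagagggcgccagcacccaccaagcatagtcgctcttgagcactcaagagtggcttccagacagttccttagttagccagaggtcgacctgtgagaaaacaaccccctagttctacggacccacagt

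The NFAT genes encode transcription factors that calcineurin dephosphorylates. *Nfatc1* (ENSMUSG00000033016) had CPM of 12.8 to 16.1 in WT-sham, 12.4 to 19.3 in WT-ORX, 11.2 to 16.5 in KO-sham and 13.6 to 20.4 in KO-ORX, so that all gastrocnemius groups overlapped. In the spinalis it had 11.4 to 17.7 in WT-empty, 10.6 to 14.6 in WT-DHT, 14.96 to 22.2 in KO-empty and 13.7 to 24.0 in KO-DHT. The lowest adjusted p among the NFAT genes was that of *Nfatc1* in KO-DHT against WT-DHT, with a log2 fold change of 0.42 (95% confidence interval 0.15 to 0.69, edgeR adjusted p = 0.0252, 4 of 6 libraries above every WT-DHT library), which was not called. In KO-ORX against KO-sham its log2 fold change was 0.35 (95% confidence interval 0.12 to 0.58, edgeR adjusted p = 0.0454, 2 of 5 libraries above every KO-sham library), also short of the threshold.

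*Nfatc2* (ENSMUSG00000027544), the NFAT gene with the lowest level per length, had CPM of 4.08 to 8.78 over the gastrocnemius libraries and 3.61 to 8.01 over the spinalis libraries. Its widest values between 2 groups were 0.41 in KO-ORX against KO-sham (edgeR adjusted p = 0.0656, 4 of 5 libraries above every KO-sham library) and −0.38 in KO-sham against WT-sham (edgeR adjusted p = 0.0741, 3 of 6 libraries below every WT-sham library), both log2 fold changes. The ORX interaction of *Nfatc2* was 0.44 (95% confidence interval 0.04 to 0.84, edgeR adjusted p = 0.462).

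*Nfatc3* (ENSMUSG00000031902), the most abundant NFAT gene per length in 7 of the 8 groups, varied little in the gastrocnemius, with CPM of 28.3 to 34.5 and log2 fold changes between −0.05 and 0.09. In the spinalis the 5 WT-empty libraries had 23.4, 29.5, 34.4, 36.1 and 38.4 CPM, and WT-DHT had 25.1 to 29.8, with a median of 26.6. The groups overlapped through WT-empty libraries 4 and 7, and the log2 fold change of −0.26 (SE 0.10, edgeR adjusted p = 0.0632) was not called. Without WT-empty library 4 it was −0.36 with an edgeR adjusted p of 0.0027, the lowest of a range that reached 0.187 when 1 library was left out. *Nfatc3* shares 219 exon bases, 1.87% of its exon length, with *Esrp2* on the opposite strand, whose median CPM was 0.589 in the gastrocnemius and 0.672 in the spinalis.

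*Nfatc4* (ENSMUSG00000023411) had CPM of 3.68 to 7.77 over the gastrocnemius libraries and 2.82 to 5.45 over the spinalis libraries. Its log2 fold change in KO-sham against WT-sham was −0.37 (95% confidence interval −0.61 to −0.13), with 5 of 6 libraries below every WT-sham library, and the edgeR adjusted p of 0.0407 missed the threshold. In KO-ORX against KO-sham it was 0.33 (95% confidence interval 0.07 to 0.58, edgeR adjusted p = 0.0919). Over the 4 NFAT genes and 10 comparisons, 0 of 40 values were called with edgeR, DESeq2 or limma-voom, while 8 had an unadjusted p under 0.05, and the highest and lowest log2 fold changes were 0.44 and −0.38. At that unadjusted edgeR cut stood 1683 to 4288 of all 17514 gastrocnemius genes and 2564 to 5070 of all 16987 spinalis genes, depending on the comparison.

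Other genes were taken from lists named for their roles, 63 genes in all that were tested in both tables and are called pathway genes below. Of these, 11 were slow and oxidative fiber genes and 11 were fast fiber genes, which are not components of the calcineurin pathway. Fiber genes made up much of some counts, with *Casq2*, *Mb*, *Mylpf*, *Pvalb* and *Myh1* among the calls in WT-ORX against WT-sham. The share of all genes called stands in brackets. In the gastrocnemius, 3 rose and 3 fell in WT-ORX against WT-sham (5.45%), 3 rose and 9 fell in KO-ORX against KO-sham (5.57%), 1 was higher and 2 lower in KO-sham than in WT-sham (5.3%), and 1 was higher and 4 lower in KO-ORX than in WT-ORX (3.8%). The ORX interaction called 0 of 63 with edgeR, with 10 at an unadjusted p under 0.05, 2 called by DESeq2 and 0 by limma-voom. In the spinalis, 7 rose and 3 fell in WT-DHT against WT-empty (11.3%), 7 rose and 4 fell in KO-DHT against KO-empty (4.62%), 0 were higher and 5 lower in KO-empty than in WT-empty (4.25%), and 3 were higher and 6 lower in KO-DHT than in WT-DHT (11.6%). The median log2 fold change of the 63 genes lay between −0.07 and 0.02 in the 10 comparisons, and that of all genes between −0.01 and 0.01.

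These counts of called pathway genes moved with single libraries. The 12 in KO-ORX against KO-sham became 5 to 11 with 1 library left out, with 6 without KO-sham library 1, 7 without KO-sham library 2, 3 or 4 or KO-ORX library 2 or 4, and 5 without KO-ORX library 5. The 6 in WT-ORX against WT-sham became 3 without WT-sham library 1 or WT-ORX library 5, the 3 in KO-sham against WT-sham became 1 without WT-sham library 3, and without WT-ORX library 2 the 5 in KO-ORX against WT-ORX became 8 and the ORX interaction called 1. In the spinalis, the 11 in KO-DHT against KO-empty became 3 to 12, with 3 without KO-empty library 64 or KO-DHT library 25, 5 without KO-empty library 17 or KO-DHT library 6, 6 without KO-empty library 61 or KO-DHT library 16, and 7 without KO-empty library 62. The 10 in WT-DHT against WT-empty became 6 without WT-empty library 49. The 5 in KO-empty against WT-empty became 2 without WT-empty library 4 or KO-empty library 17 or 64, and 3 without WT-empty library 7 or 14.

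*Calm2* and *Calm3* encode calmodulin, which activates calcineurin. *Calm3* was lower in KO-ORX than in WT-ORX by −0.38 and in KO-empty than in WT-empty by −0.39 on the log2 scale (edgeR adjusted p = 0.00020 and 0.0059). With DHT, *Calm2* rose by a log2 fold change of 0.31 in WT and 0.34 in KO (edgeR adjusted p = 0.0038 and 0.0041), and *Calm3* rose in KO by 0.38 (edgeR adjusted p = 0.0051). After ORX in KO, *Calm3* fell by a log2 fold change of −0.26 (edgeR adjusted p = 0.0069).

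Among 10 genes for calcineurin binders and inhibitors, the calsarcin gene *Myoz3* was higher in KO in 3 genotype comparisons, by log2 fold changes of 0.39 in sham (edgeR adjusted p = 1.4e-05), 0.45 in ORX (edgeR adjusted p = 5.5e-06) and 0.64 with DHT (edgeR adjusted p = 0.0014). *Myoz1*, which encodes a calsarcin of fast fibers, fell after ORX in KO by −0.36 (SE 0.06, edgeR adjusted p = 0.00010) and rose with DHT by 0.41 in WT (edgeR adjusted p = 0.00017) and 0.32 in KO (edgeR adjusted p = 0.0053), all on the log2 scale. *Akap1*, an anchoring protein of mitochondria, fell after ORX by −0.31 in WT and −0.33 in KO (edgeR adjusted p = 0.0018 and 0.0022).

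*Rcan3*, the third RCAN gene, rose with DHT in WT by a log2 fold change of 0.48 (SE 0.09, edgeR adjusted p = 0.00039, CPM of 5.94 to 7.81 against 4.37 to 5.50), and it was the single call with edgeR or limma-voom among *Rcan3*, *Ppp3cc* and *Nfat5* over the 10 comparisons, while DESeq2 also called 1 of the 3 in KO-ORX against KO-sham, *Ppp3r2* being not analysed here. The next list held 10 genes, for Homer proteins and for kinases that return NFAT to the cytoplasm or prime its phosphorylation. Of these, *Dyrk1a* rose with DHT in WT by 0.31 (edgeR adjusted p = 0.0013) and was lower in KO-DHT than in WT-DHT by −0.40 (edgeR adjusted p = 4.2e-05) on the log2 scale. *Dyrk1b* and *Homer1* were also lower in KO-DHT than in WT-DHT, by −0.62 and −0.30 (edgeR adjusted p = 0.00022 and 0.0047), and *Homer1* was lower in KO-empty than in WT-empty by −0.40 (edgeR adjusted p = 0.0021). After ORX in KO *Homer1* fell by −0.25 (edgeR adjusted p = 0.0064), and with DHT in KO *Homer2* fell by −0.53 (edgeR adjusted p = 0.0010) while *Csnk1a1* rose by 0.27 (edgeR adjusted p = 0.0058).

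Store-operated calcium entry refills calcium stores through STIM sensors and ORAI channels. *Stim2* was lower in KO-sham than in WT-sham, by a log2 fold change of −0.31 (edgeR adjusted p = 0.0050), and in KO-DHT than in WT-DHT, by −0.39 (edgeR adjusted p = 0.00033). *Orai1* and *Stim1* were higher in KO-DHT than in WT-DHT, by 0.40 and 0.25 (edgeR adjusted p = 0.0011 and 0.0045). In the 4 treatment comparisons, 0 of the 5 genes of this list were called with edgeR, DESeq2 or limma-voom, with 3 of 20 values at an unadjusted p under 0.05.

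Of 10 other factors that respond to calcineurin, *Mef2c*, a muscle transcription factor, rose with DHT in WT by a log2 fold change of 0.41 (SE 0.07, edgeR adjusted p = 0.00014) and was lower in KO-DHT than in WT-DHT by −0.43 (SE 0.07, edgeR adjusted p = 4.8e-05). It was the single pathway gene called in the DHT interaction with edgeR, at −0.44 (SE 0.10, edgeR adjusted p = 0.0103), where DESeq2 and limma-voom called 2 each, and the edgeR count was 3 without WT-empty library 49 or WT-DHT library 39 and 2 without KO-empty library 33 or 62. After ORX *Mef2c* fell in KO by −0.22 (edgeR adjusted p = 0.0018). *Foxo3*, a factor of the atrophy program, fell with DHT by −0.64 in WT and −0.60 in KO (edgeR adjusted p = 1.6e-07 and 2.0e-06), and rose after ORX in KO by 0.62 (edgeR adjusted p = 0.0014), as did *Crtc1* by 0.50 (edgeR adjusted p = 0.0099).

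The slow and oxidative list was described by its counts, since calcineurin is known for this program. Of 11 genes, 1 rose (*Casq2*, log2 fold change 0.43) and 1 fell (*Mb*, −0.50) in WT-ORX against WT-sham, and the same counts held in KO (*Casq2* 0.45, *Mb* −0.56), with edgeR adjusted p-values of 0.0090, 0.0092, 0.0092 and 0.0055. In WT after ORX the list median was 0.30, with 9 of 11 genes above 0 and 7 at an unadjusted p under 0.05. In KO after ORX the median was 0.23, with 8 of 11 genes above 0 and 3 at an unadjusted p under 0.05. With DHT in WT, *Mb*, the myoglobin gene, rose by 0.79 and *Casq2* fell by −0.70 (edgeR adjusted p = 0.00050 and 0.0030), and in KO *Casq2* and *Tpm3* fell by −1.08 and −1.47 (edgeR adjusted p = 9.2e-05 and 0.0089). The list median was −0.97 in WT and −1.47 in KO with DHT, with 9 of 11 genes not called in each. At an unadjusted p under 0.05 were 9 genes in WT and 10 in KO, and DESeq2 called 2 and 3 and limma-voom 2 and 4. It was 0.53 in KO-empty against WT-empty, where 11 of 11 genes were above 0, and −0.46 in the DHT interaction, where 11 of 11 were below 0. In these 2 comparisons 0 genes were called with edgeR, DESeq2 or limma-voom, with 1 and 0 genes at an unadjusted p under 0.05.

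Of 11 fast fiber genes, *Mylpf* and *Pvalb* rose after ORX in WT by log2 fold changes of 0.44 and 0.29 and *Myh1* fell by −0.61 (edgeR adjusted p = 0.00010, 0.0030 and 0.0050). In KO after ORX, *Tnni2*, *Myh1* and *Tnnt3* fell by −0.26, −0.61 and −0.20 (edgeR adjusted p = 0.00073, 0.0074 and 0.0087). With DHT, *Myl1* rose by 0.29 in both genotypes (edgeR adjusted p = 0.0041 in WT and 0.0088 in KO), *Atp2a1* fell in WT by −0.37 (edgeR adjusted p = 0.0066), and *Tnni2* and *Tnnc2* rose in KO by 0.36 and 0.69 (edgeR adjusted p = 0.0044 and 0.0054). Between genotypes, *Tnnt3* was lower in KO-ORX by −0.41 and in KO-empty by −0.37, *Myl1* was lower in KO-ORX by −0.30 and *Tnnc2* in KO-empty by −0.71 (edgeR adjusted p = 3.6e-06, 0.0062, 0.0079 and 0.0061).

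The remaining marker calls were as follows. Of all genes, 5.45% were called in WT-ORX, 5.57% in KO-ORX, 11.3% in WT-DHT and 4.62% in KO-DHT against their controls. Between genotypes the share of all genes called was 5.3% in sham mice and 3.8% after ORX, and 4.25% with empty implants and 11.6% with DHT. Of 8 skeletal muscle genes, 2 rose and 1 fell in WT-ORX against WT-sham, 2 fell in KO-ORX against KO-sham, 1 rose and 1 fell in WT-DHT against WT-empty, and 1 was lower in KO-empty than in WT-empty and in KO-DHT than in WT-DHT. In KO-DHT against KO-empty 0 of the 8 were called with edgeR, DESeq2 or limma-voom, with 3 at an unadjusted p under 0.05. Of 6 immune genes, 1 fell in WT-ORX against WT-sham, 1 was higher and 1 lower in KO-sham than in WT-sham, and 1 was higher in KO-ORX than in WT-ORX. Of 5 fibroblast genes, 1 rose and 1 fell in WT-ORX, WT-DHT and KO-DHT against their controls, and 1 rose in KO-ORX. Of 4 satellite cell genes, 1 was higher in KO-sham than in WT-sham and 2 in KO-DHT than in WT-DHT.

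For each member, the genes with the most similar pattern were those with the highest mean of 2 Pearson correlations of log2 CPM, over the 23 gastrocnemius and the 22 spinalis libraries, among 16642 genes tested in both tables. These libraries come from 4 differing groups each, so the correlations follow group differences as well as the spread within groups and carry no test. *Rcan2* had the closest neighbours, *Cdk19* (0.94), *Ptpn3* (0.93) and *Slc15a5* (0.93), followed by *Ppp3ca* with *Nudt4* (0.88), *Neu2* (0.87) and *Gstm2* (0.86). *Ppp3r1* was most like *Hif1an* (0.83), *Hnrnpa2b1* (0.79) and *Tceal5* (0.78), and *Ppp3cb* most like *Zfyve9* (0.81), *Pafah1b1* (0.75) and *Foxn3* (0.72). *Rcan1* was most like *Prune1* (0.75), *Lancl1* (0.75) and *Srxn1* (0.71).

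Among the NFAT genes, *Nfatc1* was like *Peak1* (0.76) and *Prrc2b* (0.76), and *Nfatc3* most like *Dag1* (0.76), *Ppp2r5e* (0.76) and *Ep300* (0.73). *Nfatc2* was most like *Tet3* (0.71), *Sh3bp4* (0.71) and *Cspg4* (0.70), and *Nfatc4* most like ENSMUSG00000118667 (0.72), *Dpysl3* (0.70) and *Rin2* (0.70). With Spearman correlations 11 of the 27 genes selected for the 9 members were selected again, and no member was among the 27.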

How the data were processed

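RNA of 46 muscle samples was sequenced, and the deposited tables hold raw counts per Ensembl gene, which the authors made with STAR 2.7.1b, SAMtools 1.9, Picard 2.20.2 and featureCounts of Subread 2.0.0 on GRCm39, per the submitters' processing notes. The strand setting of the counting is not given in the sources used here. Columns of 45 libraries were used, and those of the androgen treatment experiment could be matched to their group only. The members and the gene lists were chosen with earlier results of these data known.

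Each table was fitted apart with edgeR 4.0.16 in R 4.3.3 (quasi-likelihood F test, TMM, 1 mean per group, prior count 2 for log2 CPM), after a minimum of 0.5 CPM in 2 libraries. Adjusted p-values are edgeR's unless another tool is named. The fit was tested on simulated data, where it recovered fewer of the changed genes in the DHT interaction than in any other comparison that was changed, so an uncalled DHT interaction does not show that the responses are alike. Names matched 17433 of 17514 and 16920 of 16987 identifiers. The alternatives were DESeq2 1.42.0, limma-voom (limma 3.58.1), library-size scaling, at least 10 counts in every library, a threshold of 0.05 (for the interaction, 0.01), only the groups compared, the replicate number as a block, and each library left out. For each comparison, pathway genes past the threshold are named by list. Plots were drawn with matplotlib 3.10.9 in Python 3.11.15 from tables read with pandas 2.3.3. Some genes that the selection rules named are not reported here.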

Additional observations from a re-analysis of the deposited data

Results flagged for a closer look

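In 72 tests of a member within a group, 9 values, from 7 libraries, lay far from the others of their group (Dixon's test), while chance flags about 1 in 20. On the log2 CPM scale, KO-sham library 2 was low for *Rcan1* (5.94) and *Ppp3r1* (6.68), WT-ORX library 6 was low for *Rcan2* (4.72) and WT-ORX library 4 for *Ppp3cb* (7.65). *Nfatc3* was high in KO-sham library 1 (5.11) and KO-DHT library 16 (4.96) and low in KO-ORX library 3 (4.84). *Nfatc4* was high in WT-sham library 5 (2.97) and low in KO-ORX library 3 (2.18).

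The response of *Rcan2* to DHT differed between genotypes, with an interaction of −0.57 on the log2 scale.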

How the results depend on the processing

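Of 2637 alternative values of the members' fold changes, 2608 kept their direction and side of the threshold or were uncalled in both fits (2292, of which 67 had the other sign), 7 were no longer past the threshold, 22 came past it and 0 reversed. For the changed counts below, the cause was not tested.

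Members called moved with library-size scaling to 2 in KO-ORX against KO-sham (1 as reported) and 0 in KO-sham against WT-sham (2), and with DESeq2 to 1 in KO-ORX against WT-ORX (0) and 1 in the ORX interaction (0). At a threshold of 0.05 they were 3 in KO-ORX against KO-sham (1), 1 in KO-ORX against WT-ORX (0), 1 in KO-empty against WT-empty (0) and 3 in KO-DHT against WT-DHT (0), and also 3 in KO-sham against WT-sham (2) and WT-DHT against WT-empty (2). Limma-voom and the fit of only the groups compared also gave 3 in WT-DHT against WT-empty. Library-size scaling moved the median of all genes by 0.106 (log2) in KO-ORX against KO-sham. It also moved the percentage of all called genes that were higher from 37.5 to 54.4 in WT-ORX against WT-sham, 35.7 to 78.6 in KO-ORX against KO-sham, 28.2 to 46.9 in KO-ORX against WT-ORX, 58.8 to 43.6 in WT-DHT against WT-empty, 41.3 to 52.9 in KO-empty against WT-empty, 44.1 to 65.3 in KO-DHT against WT-DHT, 41.5 to 55.1 in the DHT interaction and 75 to 100 in the ORX interaction (39.4 with DESeq2 and 40 with limma-voom).

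All genes called in the ORX interaction were 127 with DESeq2, 10 with limma-voom and 2 to 38 with 1 library left out, against 4. With 1 library left out, all genes called were 589 to 1116 in KO-ORX against KO-sham (975) and 450 to 700 in KO-empty against WT-empty (722). DESeq2 called 1201 in KO-DHT against KO-empty (784 as reported). With only the groups compared, 485 were called in KO-ORX against KO-sham (975), 505 in KO-DHT against KO-empty (784) and 290 in KO-empty against WT-empty (722). At the other threshold the counts, in the order of the comparisons in the text, were 1735, 1925, 1838, 1260 and 1 in the gastrocnemius (955, 975, 928, 666 and 4) and 3078, 1840, 1557, 3170 and 273 in the spinalis (1914, 784, 722, 1978 and 550). Without both spinalis libraries that stood apart, chosen after seeing the data, members called were 2, 3, 0, 0 and 1, as with them, and pathway genes called were 5 in KO-DHT against KO-empty (11), 3 in KO-empty against WT-empty (5) and 3 in the DHT interaction (1).

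Pathway genes called were 7 with library-size scaling and 3 with only the groups compared in KO-ORX against KO-sham (12), 1 with only the groups compared in KO-sham against WT-sham (3), 8 with DESeq2 in KO-ORX against WT-ORX (5), 9 with DESeq2 and 2 with only the groups compared in KO-empty against WT-empty (5), and 2 with DESeq2, limma-voom and library-size scaling in the DHT interaction (1).

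With 1 library left out, members called were 1 to 2 in KO-ORX against KO-sham, 1 to 2 in KO-sham against WT-sham, 0 to 1 in KO-ORX against WT-ORX, 2 to 4 in WT-DHT against WT-empty and 0 to 1 in KO-empty against WT-empty, and were constant in the other 5 comparisons.

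Replicate numbers gave no clear sign of pairing the samples. The 33 pairs with the same number had correlated deviations of −0.15 to 0.188 (median 0.007), 6 of them over 0.1. The 165 pairs with other numbers had −0.211 to 0.196 (median −0.009), 20 of them over 0.1. Not every sample correlated best with its own number. With the number as a block, members called in the gastrocnemius comparisons were 2, 1, 2, 0 and 0, as without it. No paired analysis was possible because the columns carry no pairing number in the spinalis experiment.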
